A study of Mus musculus with 8 samples.

Results

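The genes described here are 34 genes of DNA replication and of the synthesis of its deoxynucleotide building blocks, measured in cells sorted as hematopoietic stem cells from mice with and without Atg12. They were taken by gene symbol from the deposited expression table, 34 of the 24213 genes it names, and grouped into 6 replication steps. All 34 were measured. Pcna and Tk1 each had 2 features, of which the brighter on average was used.

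The control mice were C57BL/6 mice with both Atg12 alleles floxed (Atg12 flox/flox), 4 in number. The knockout mice, also 4, were Atg12 flox/flox and carried Mx1-Cre, a recombinase gene driven by an interferon-responsive promoter, so that the loss of Atg12 and the presence of Cre cannot be told apart. Every mouse of both genotypes received poly(I:C), a double-stranded RNA mimic that induces interferon, at 4 weeks of age. Cells were taken from the bone marrow of single mice 2 to 3 months later, at 3 to 4 months of age. They were sorted in 2 rounds for c-Kit, Sca-1 and CD150 and against lineage markers, Flk2 and CD48. Mx1-Cre is active in many cell types besides blood. Each array (Affymetrix Gene ST 1.0) holds the amplified RNA of 1 mouse per the labels, and its values are log2 signals normalized by RMA. Differences are in log2 units, knockout minus control.

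Replication begins when the origin recognition complex, with Cdc6 and Cdt1, loads the Mcm2-7 helicase onto origins in G1. Cyclin E and the kinases it activates, together with Mcm10, Cdc45 and the GINS complex, then turn the loaded rings into moving helicases, and polymerases held by the PCNA clamp copy each strand from a pool of deoxynucleotides. Many of these genes are transcribed at the G1 to S transition by E2F factors, and quiescent adult hematopoietic stem cells are known for low levels of the program, so it is a common readout of stem cells leaving rest. Atg12 is the ubiquitin-like protein joined to Atg5 that autophagosome formation needs, and the comparison asks whether its loss is accompanied by a change in this program.

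None of the 34 genes passed the test between genotypes in either direction, and the differences were small. The mean over all 34 was 7.47 ± 0.04 in controls and 7.45 ± 0.04 in knockouts (log2 signal, mean ± SD, n = 4 mice each), a difference of -0.014 with a standard error of 0.03. The median difference over the genes was -0.03, against 0.0017 over all genes, with 14 genes higher and 20 lower in the knockout mean. All 34 were at or above the median signal of all genes. The 12107 genes at that level leaned the same way, with a mean difference of -0.018 and a median of -0.013, and 5479 were higher and 6628 lower. With limma's moderated test and Benjamini-Hochberg adjustment over all genes, 0 of 34 were called at an adjusted p of 0.05, where 1 of 24213 genes was (0.00413%), and that gene was Atg12. At an unadjusted limma p of 0.05 there were 2 of 34, or 5.88%, against 4.94% of all genes (1195). The 95% intervals of the 34 genes together ran from -0.36 to 0.45, or 0.780-fold to 1.37-fold, and 32 of them held 0. A p above the threshold does not show that a gene was the same in both genotypes, and these intervals give the sizes that 4 mice per group leave possible.

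The targeted gene matched the labels. Atg12 signals were 6.41, 6.37, 6.55 and 6.42 in the controls and 5.66, 5.45, 5.35 and 5.56 in the knockouts. Every knockout was below every control, and the difference was -0.93 (SE 0.10, limma adjusted p 0.031). That call was lost in each of the 8 fits that left out a single array, with limma adjusted p-values from 0.0542 to 0.226.

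Several arrays stand apart from the rest of their group. Xist, the transcript of the inactive X chromosome, was high (8.12 to 9.50) in control 4 and knockouts 1, 2 and 4, and the 4 Y-linked genes read were high (4.93 to 7.14) in controls 1 to 3 and knockouts 3 and 4. So 3 arrays carried the Xist signal alone (1 control and 2 knockouts), 4 the Y-linked signal alone (3 controls and 1 knockout), and knockout 4 carried both. The labels name 1 mouse per array and give no sex, and the readings of knockout 4 match neither sex alone. The cause was not tested. Knockout 3 lay at -39.5 on the first principal component of all genes, where the other 7 arrays lay between -12.2 and 14.8. The same 4 Y-linked genes and Xist, on arrays that lack them, give a reading of absent transcripts, 1.64 to 3.20, called the absent level here.

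The stem cell label was checked against the markers of the sort. Kit, which encodes c-Kit, gave 8.36 to 8.70 over the 8 arrays, and Ly6a, which encodes Sca-1, gave 3.55 to 5.02 and was the marker of the sort with the widest difference, 0.65 (limma adjusted p 0.991). Slamf1, which encodes the CD150 used for positive selection, gave 2.22 to 2.98, within the level of absent transcripts on every array. Cd48, used for negative selection, gave 8.53 to 8.69, and Flt3, which encodes Flk2, gave 4.78 to 5.61. Of 10 stem cell identity genes, 7 were above the absent level in their mean over arrays, and Mecom, Tek and Esam were not. All 8 genes of early myeloid progenitors were above it, with mean signals of 12.2 for Mpo, 11.3 for Elane and 11.6 for Ctsg. The transcript readings therefore go against the label for CD150 and CD48. Flt3, also of negative selection, was above the absent level on all 8 arrays. Ly6a, of positive selection, was above it too, though its lowest reading was 3.55. The cells are called by their sort here. Whether the probe sets of these markers respond to their transcripts was not tested.

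**Figure D1:**
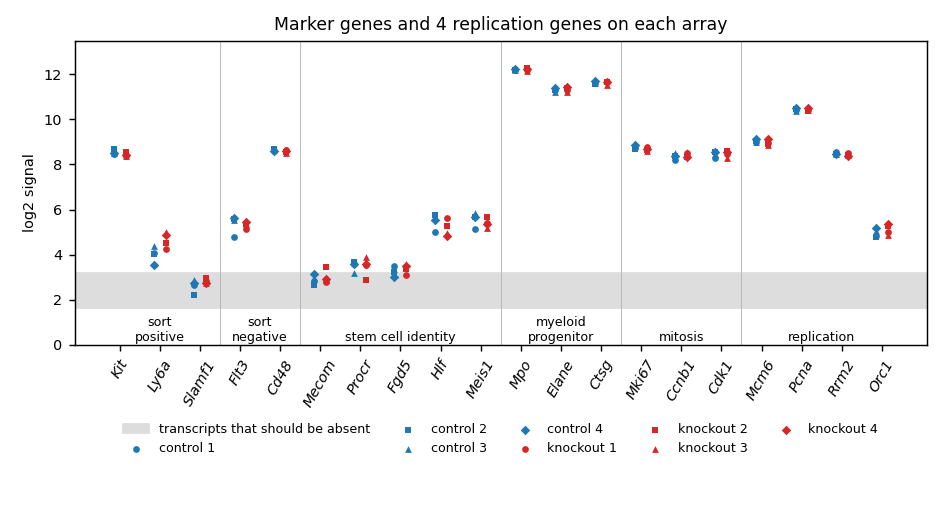
Log2 signal (y axis) of the sort markers, stem cell identity genes, myeloid progenitor genes, mitosis genes and 4 replication genes (x axis) on each of 4 control (blue) and 4 knockout (red) arrays, with the grey band marking transcripts that should be absent (1.64 to 3.20). Slamf1 lies in the band on all arrays, while Cd48, Mpo, the mitosis genes and the replication genes lie above it, with the genotypes side by side.

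All 34 replication genes were above the absent level on all 8 arrays, the lowest reading being 4.78 for Orc1 in control 2. Signals of different genes come from different probe sets and are not ranked here. The replication genes were tight within a genotype: the median within-group SD was 0.0965, against 0.175 over all genes and 0.154 over the 12107 genes at or above the median signal. This was not particular to them. The same median was 0.0767 for the early myeloid progenitor genes, 0.117 for 15 mitosis genes and 0.126 for 94 other genes of the pathway. In 28 of 34 genes the difference between genotypes was no larger than the larger group SD. In 24 genes it was under 0.1, and in 1 gene, Ccne1, it was above 0.2. RNA of a whole sorted sample was measured, so fewer cells in S phase and less RNA per cell cannot be told apart.

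The genotypes did not overlap in 4 of 34 genes, or 11.8%, where they did not overlap in 2.9% of all genes and in 3.44% of the genes at or above the median signal. Mcm7, Rpa2 and Tyms were lower in every knockout than in any control (3 genes, where 1.54% of all genes were so), and Ccne1 was higher (1 gene, 1.36% of all genes). These 4 genes belong to 4 different steps. None of them was called, each had an exact permutation p of 0.0286, which is the smallest that 4 against 4 arrays can give, and no test of the count itself was made.

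**Figure D2:**
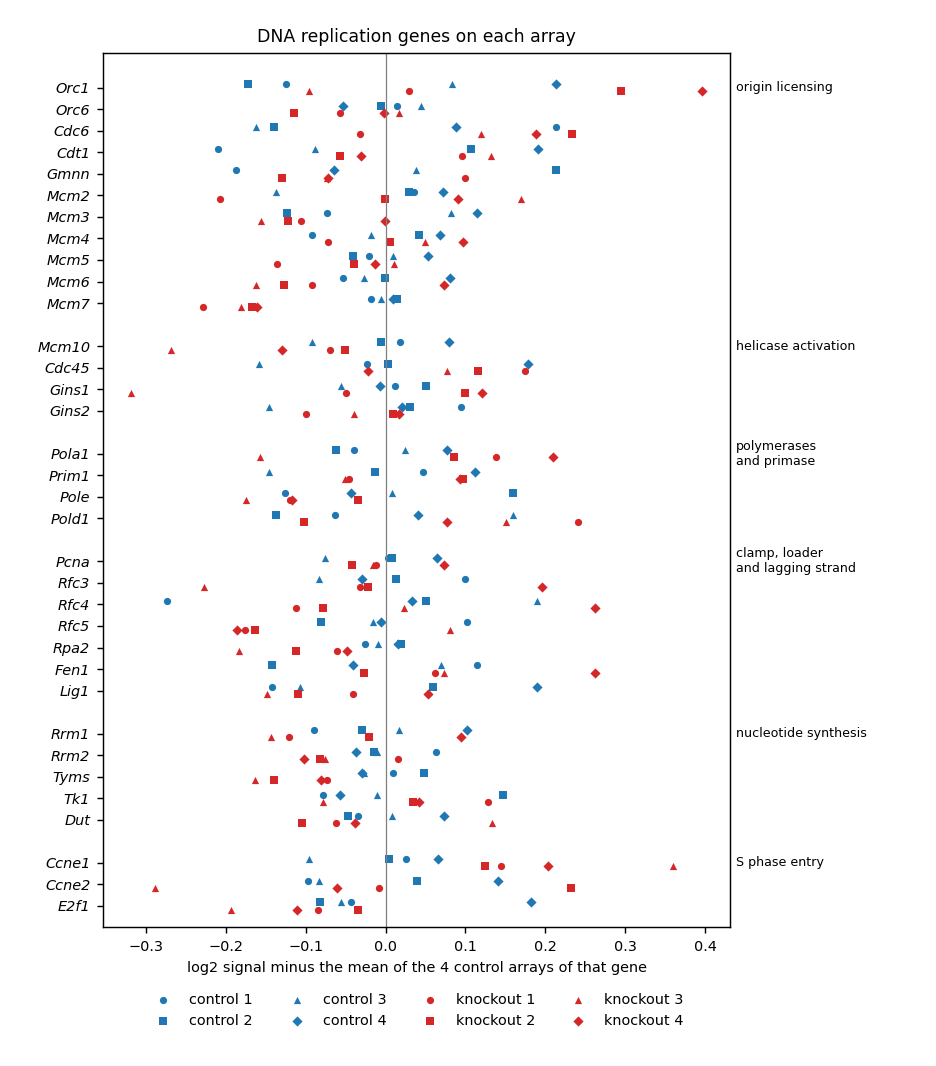
Log2 signal of each of the 34 genes minus the mean of its 4 control arrays (x axis), with genes on the y axis in the order of the replication steps, blue for controls, red for knockouts and a symbol for each replicate. The 2 colours separate in Mcm7, Rpa2, Tyms and Ccne1 and are mixed in the other genes.

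The first step, origin licensing, holds 11 genes: Orc1 and Orc6 of the origin recognition complex, the loaders Cdc6 and Cdt1, the Cdt1 inhibitor geminin (Gmnn), and the 6 subunits of the Mcm2-7 ring. Their mean was 7.30 ± 0.05 in controls and 7.29 ± 0.05 in knockouts, a difference of -0.012 (SE 0.03), with 5 genes higher and 6 lower. The ring subunits Mcm3, Mcm5, Mcm6 and Mcm7 had negative differences, and Mcm2 and Mcm4 had differences near 0 whose sign depended on the arrays included. Without knockouts 3 and 4 all 6 subunits had negative differences, from -0.20 (Mcm7) to -0.03 (Mcm4). They did so too among the arrays with the Xist signal alone, from -0.23 (Mcm3) to -0.10 (Mcm4). That split holds the same knockouts, 1 and 2, set against control 4 alone, so it is not a separate observation. Among the arrays with the Y-linked signal alone Mcm2, Mcm4 and Mcm5 were positive, at 0.19, 0.07 and 0.03.

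Mcm7, a subunit of the ring that carries one of its ATP-hydrolysing sites, had the smallest p of the 34 genes. Its signals were 8.46, 8.49, 8.47 and 8.49 in the controls and 8.25, 8.31, 8.30 and 8.32 in the knockouts. The 4 controls lay within 0.05 of each other and the 4 knockouts within 0.1, with a gap between the groups. The means were 8.48 ± 0.01 and 8.30 ± 0.03, and the difference of -0.18 (SE 0.08, 95% interval -0.36 to -0.01) is a fold of 0.880. The unadjusted limma p was 0.0405 and the adjusted p was 0.9996. The SE of limma is larger than the spread of these arrays gives, because it is drawn toward the spread of all genes, and with a prior that follows the signal level it was 0.06 (unadjusted p 0.00681, adjusted p 0.861). Mcm7 differed by -0.21 among the arrays with the Xist signal alone and by -0.18 among those with the Y-linked signal alone. It was -0.19 without knockout 3 and -0.20 without knockouts 3 and 4.

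Orc1, the largest subunit of the origin recognition complex, differed the other way. Its signals were 4.83, 4.78, 5.04 and 5.17 in the controls and 4.98, 5.25, 4.86 and 5.35 in the knockouts. The groups overlapped, since control 4 was above 2 of the knockouts, and the difference was 0.16 (SE 0.13, limma unadjusted p 0.27). Within the Xist-only and Y-only arrays its differences were -0.05 and -0.03, opposite in sign to the difference over all arrays, and with the Xist signal as a covariate it was 0.02.

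The other licensing genes lay between -0.10 (Mcm3) and 0.13 (Cdc6). Cdc6, the ATPase that helps load the ring, ranged from 5.92 to 6.29 in controls and from 6.05 to 6.31 in knockouts. Cdt1, its partner in loading, differed by 0.04 and geminin, which blocks Cdt1 after S phase begins, by -0.04, with ranges that overlapped for both. Of the ring subunits, Mcm3 ranged from 7.999 to 8.24 in controls and 7.97 to 8.12 in knockouts, and Mcm6 from 8.98 to 9.12 and 8.87 to 9.11 (difference -0.08). Mcm2, Mcm4, Mcm5 and Orc6 differed by 0.013, 0.02, -0.04 and -0.04, each no larger than the larger group SD, and the ranges overlapped.

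The promoters were searched for E2F words. Many of these genes are known to be driven by E2F factors, so an excess of such words is not independent of the choice of genes. Promoter windows from RefSeq (build GRCm38.p6) were at hand for 28 of the 34 genes, the other 6 being Gmnn, Pole, Gins1, Gins2, Ccne2 and Mcm4. Each runs from 250 bases before to 50 after the start site given with the window. For some genes, such as Orc1, Cdc6, Mcm7 and Pola1, that site lies inside the range of the gene and not at its outer end. The E2F words TTTGGCGC, TTTCCCGC, TTTGCCGC and TTTCGCGC were searched on both strands. They were found in 10 of the 28 windows (35.7%), 16 matches in all, against 2.33% of all 27025 windows. Of 9 licensing genes with a window, 7 held a match (Orc1, Cdc6, Cdt1, Mcm3, Mcm5, Mcm6 and Mcm7), and of the 19 other genes 3 did (Pola1, Pold1 and Rfc3). In Mcm5 and in Mcm6 a pair of matches on opposite strands overlaps, so those matches are not separate. A match is a run of letters and says nothing of binding, and windows without one may hold E2F sites of other letters. For each of the 10 genes the match nearest the start site is shown on the strand of the gene, with up to 10 bases on each side. Capitals mark the match, so that the letters behind the count can be seen. The difference in count between the licensing genes and the others was not tested, and Orc6 and Mcm2 hold none.
Orc1, chr4:108579417-108579444, plus strand: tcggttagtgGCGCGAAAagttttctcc
Cdc6, chr11:98908003-98908030, plus strand: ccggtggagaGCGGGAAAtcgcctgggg
Cdt1, chr8:122568037-122568064, plus strand: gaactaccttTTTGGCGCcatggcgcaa
Mcm3, chr1:20820276-20820303, minus strand: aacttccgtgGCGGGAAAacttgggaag
Mcm5, chr8:75109350-75109377, plus strand: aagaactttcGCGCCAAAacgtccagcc
Mcm6, chr1:128359735-128359762, minus strand: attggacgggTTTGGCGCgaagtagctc
Mcm7, chr5:138171850-138171877, minus strand: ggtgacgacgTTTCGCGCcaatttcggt
Pola1, chrX:93632276-93632303, minus strand: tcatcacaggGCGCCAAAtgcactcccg
Pold1, chr7:44548766-44548786, minus strand: gtatcttgtgGCGGGAAAagc
Rfc3, chr5:151651191-151651218, minus strand: tttcgcgctcGCGGGAAAactctactgt
The nearest match lay within 100 bases of the start site given with the window in 7 of the 10 genes. In Cdt1, Mcm6 and Mcm7 it reads forward as one of the words searched, and in the other 7 genes it is the reverse complement of one. The genes with a match did not lean to one side in the knockouts. Mcm7, Mcm3, Mcm5, Mcm6 and Rfc3 had negative differences, and Orc1, Cdc6, Cdt1, Pola1 and Pold1 positive ones. The signs of Rfc3, Cdt1 and Pola1 did not hold in all the alternative fits.

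The promoter windows of the 2 genes with an unadjusted p under 0.05 are shown whole, one of a gene with E2F words and lower in the knockouts, the other of a gene without them and higher. Capitals mark the E2F words.
Mcm7 promoter, chr5:138171834-138172133, minus strand: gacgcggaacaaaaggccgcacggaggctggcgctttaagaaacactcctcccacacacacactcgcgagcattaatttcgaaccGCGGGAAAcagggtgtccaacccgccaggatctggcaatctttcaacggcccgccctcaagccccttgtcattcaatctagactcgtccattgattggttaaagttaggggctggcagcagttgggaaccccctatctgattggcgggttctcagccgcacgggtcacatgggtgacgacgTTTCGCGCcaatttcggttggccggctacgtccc
Ccne1 promoter, chr7:38107441-38107740, minus strand: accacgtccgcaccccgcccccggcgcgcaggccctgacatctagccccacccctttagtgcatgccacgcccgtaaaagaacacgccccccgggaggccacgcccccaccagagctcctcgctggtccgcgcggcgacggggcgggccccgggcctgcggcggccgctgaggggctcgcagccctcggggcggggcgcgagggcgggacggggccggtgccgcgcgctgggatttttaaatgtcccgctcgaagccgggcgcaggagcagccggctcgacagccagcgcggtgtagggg
The Mcm7 window holds 2 E2F words and the Ccne1 window none, while 4 GC boxes (GGGCGG on either strand) were counted in that of Ccne1 and 1 in that of Mcm7.

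Mcm7 also hosts 3 microRNAs in the same transcriptional direction, and these were looked at after the values of Mcm7 were seen. Their mature sequences from RefSeq are shown with the seed, bases 2 to 8, in capitals, because 2 of the 3 share it.
mmu-miR-106b-5p, chr5:138165787-138165807, minus strand: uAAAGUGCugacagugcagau
mmu-miR-93-5p, chr5:138165574-138165596, minus strand: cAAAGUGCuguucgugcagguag
mmu-miR-25-3p, chr5:138165332-138165353, minus strand: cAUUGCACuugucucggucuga
The seed AAAGUGC is common to miR-106b and miR-93, and miR-25 has AUUGCAC. The array features named for these genes read the precursor region and not the mature microRNA. The Mir106b feature was above the absent level on 0 of 8 arrays. Mir93 gave 4.52, 4.80, 4.23 and 4.18 in the controls and 4.69, 4.46, 4.34 and 4.36 in the knockouts, a difference of 0.03 (SE 0.14). Mir25 gave 5.29, 5.15, 4.80 and 4.93 against 5.30, 4.95, 5.27 and 5.12, a difference of 0.12 (SE 0.13). The groups overlapped for both, and neither leaned the way Mcm7 did.

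Helicase activation holds 4 genes, Mcm10, Cdc45 and the GINS subunits Gins1 and Gins2. Their mean was 7.39 ± 0.08 in controls and 7.37 ± 0.08 in knockouts, a difference of -0.03 (SE 0.06), with 1 gene higher and 3 lower. Mcm10, a scaffold needed for the loaded helicase to start moving, gave 6.84, 6.82, 6.73 and 6.90 in the controls and 6.75, 6.77, 6.56 and 6.70 in the knockouts. Control 3 was below knockouts 1 and 2, and the difference was -0.13 (SE 0.09, limma unadjusted p 0.179). Without knockout 3, the lowest array for this gene, it was -0.08. Cdc45, the helicase cofactor, gave 7.87, 7.89, 7.73 and 8.07 against 8.06, 8.005, 7.97 and 7.87, with the highest reading in a control and the difference at 0.09 (SE 0.10, limma unadjusted p 0.399). Gins1 differed by -0.04 and by 0.06 once knockout 3, its lowest array at 6.79, was left out. Gins2 differed by -0.03.

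The polymerase step holds Pola1 and Prim1, the catalytic subunits of polymerase alpha and primase that lay down the first stretch of each new strand, Pole of the leading strand and Pold1 of the lagging strand. The mean was 7.27 ± 0.04 in controls and 7.28 ± 0.06 in knockouts, a difference of 0.018 (SE 0.03), with 3 genes higher and 1 lower. Pole gave 6.83, 7.12, 6.96 and 6.91 in the controls and 6.84, 6.92, 6.78 and 6.84 in the knockouts. The lowest control lay among the knockouts, and the difference was -0.11 (SE 0.09, limma unadjusted p 0.253). Pold1 gave 6.85, 6.78, 7.07 and 6.95 against 7.15, 6.81, 7.07 and 6.99, with readings of the groups interleaved and a difference of 0.09 (SE 0.11, limma unadjusted p 0.408). Pola1, which lies on the X chromosome, differed by 0.07 over all arrays, by 0.03 among Xist-only arrays and by -0.13 among Y-only arrays. Prim1 differed by 0.02.

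The step of clamp, clamp loader, single-strand binding and lagging-strand joining holds 7 genes, and its mean was 7.92 ± 0.02 in controls and 7.89 ± 0.08 in knockouts, a difference of -0.03 (SE 0.04). That difference was -0.06 without knockout 4, whose mean for this step was the highest of all arrays, and -0.0074 without knockout 2. Pcna, the sliding clamp and a standard proliferation marker, was level: its controls ranged from 10.36 to 10.50 and its knockouts from 10.39 to 10.51, and its 2 features differed by 0.0012 and 0.0010 between genotypes. Of the clamp loader subunits, Rfc3 and Rfc4 differed by -0.02 and 0.02. Rfc5 gave 8.73, 8.55, 8.61 and 8.62 in the controls and 8.45, 8.47, 8.71 and 8.44 in the knockouts, a difference of -0.11 (SE 0.10, limma unadjusted p 0.271). Knockouts 1, 2 and 4 lay below all controls and knockout 3 lay above 3 of them, and without knockout 3 the difference was -0.17.

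Rpa2, the middle subunit of the protein that coats single-stranded DNA, was one of the genes whose groups did not overlap. Its signals were 7.35, 7.39, 7.36 and 7.39 in the controls and 7.31, 7.26, 7.19 and 7.33 in the knockouts. The controls were within 0.05 of each other and the highest knockout lay just under the lowest control. The difference was -0.10 (SE 0.08, limma unadjusted p 0.242), and it was -0.10 among Xist-only and -0.18 among Y-only arrays. Fen1, the nuclease that trims the flaps between lagging-strand fragments, differed by 0.09 and Lig1, the ligase that seals them, by -0.06, both with overlapping ranges.

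Nucleotide synthesis holds the ribonucleotide reductase subunits Rrm1 and Rrm2, thymidylate synthase (Tyms), thymidine kinase (Tk1) and the dUTP-removing enzyme Dut. Its mean was 8.14 ± 0.02 in controls and 8.10 ± 0.03 in knockouts, a difference of -0.04 (SE 0.016), with 1 gene higher and 4 lower. The array means were 8.12, 8.16, 8.14 and 8.15 in the controls and 8.12, 8.08, 8.08 and 8.13 in the knockouts, so that knockouts 1 and 4 were above the lowest control. Tyms, which makes thymidylate, gave 7.96, 8.001, 7.93 and 7.92 in the controls and 7.88, 7.81, 7.79 and 7.87 in the knockouts. Every knockout was below every control, with a difference of -0.11 (SE 0.08, limma unadjusted p 0.185), and the difference was -0.08 among Xist-only and -0.17 among Y-only arrays. Rrm2, the subunit of the reductase that is made in S phase, gave 8.55, 8.48, 8.48 and 8.46 against 8.51, 8.41, 8.42 and 8.39. Its knockout 1 lay above 3 of the controls, and the difference was -0.06 (SE 0.08, limma unadjusted p 0.472). Rrm1, Tk1 and Dut differed by -0.05, 0.03 and -0.018, and the second feature of Tk1 by -0.02.

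S phase entry holds the cyclins E, Ccne1 and Ccne2, which activate Cdk2 at the start of S phase, and the activator E2f1. The mean was 6.29 ± 0.09 in controls and 6.31 ± 0.06 in knockouts, a difference of 0.02 (SE 0.05), and its members differed in sign. Ccne1 gave 6.15, 6.13, 6.03 and 6.19 in the controls and 6.27, 6.25, 6.48 and 6.33 in the knockouts. Every knockout was above every control, the closest pair being control 4 and knockout 2, and knockout 3 was the highest array. The means were 6.12 ± 0.07 and 6.33 ± 0.11, and the difference of 0.21 (SE 0.09, 95% interval 0.01 to 0.41) is a fold of 1.16. The unadjusted limma p was 0.0441 and the adjusted p was 0.9996. The difference was 0.07 among Xist-only arrays, 0.38 among Y-only arrays, 0.16 without knockout 3 and 0.13 without knockouts 3 and 4, so its size moved with that array.

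Ccne2, the other cyclin E, ranged from 6.66 to 6.90 in controls and from 6.47 to 6.99 in knockouts, a difference of -0.03. The 2 paralogs differed in sign over all arrays, but the sign of Ccne2 turned in 4 alternative fits (-0.17 to 0.11). The difference between the paralogs was not tested. E2f1, an activator of the G1 to S program, gave 5.93, 5.89, 5.92 and 6.16 in the controls and 5.89, 5.94, 5.78 and 5.86 in the knockouts. Control 4 was above all other arrays, the rest overlapped, and the difference of -0.11 (SE 0.09, limma unadjusted p 0.283) was -0.05 without that control.

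**Figure D3:**
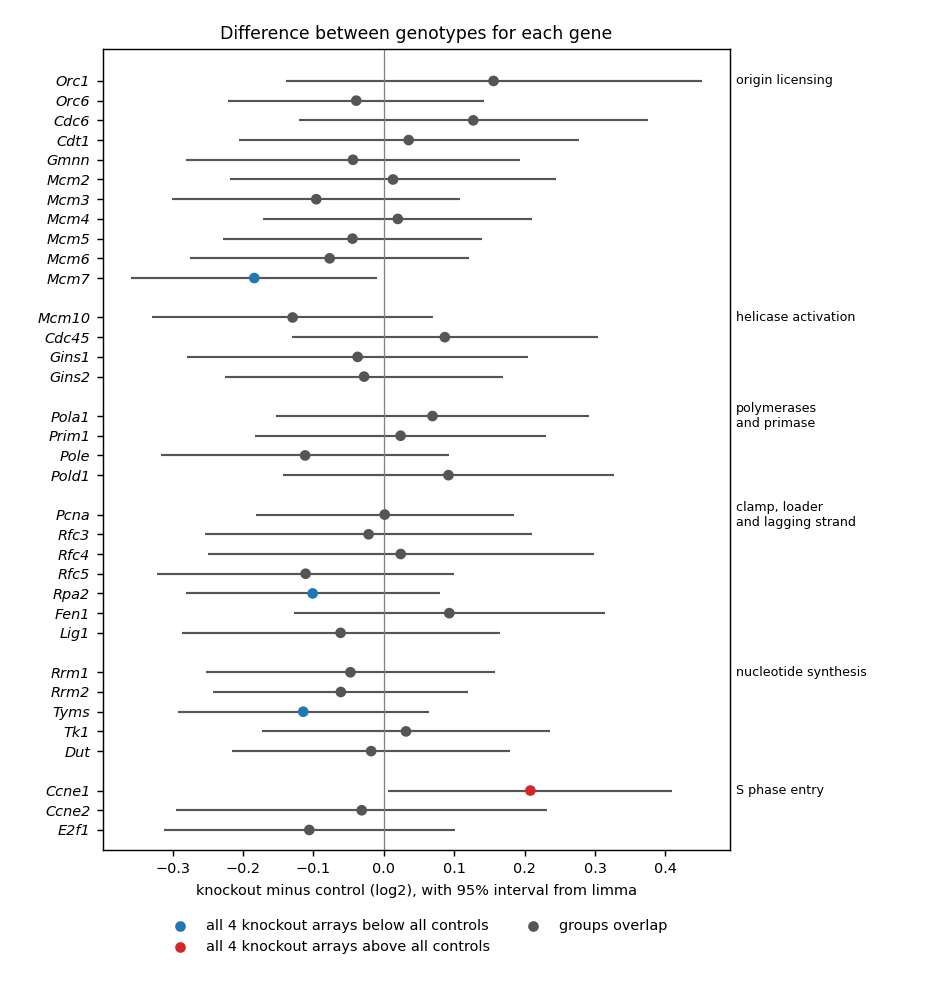
Difference between genotypes for each of the 34 genes (x axis, knockout minus control in log2 signal; points with limma's 95% intervals), by replication step on the y axis, coloured where all 4 knockouts lay below (blue) or above (red) all controls. All intervals but those of Mcm7 and Ccne1 hold 0, and together they span -0.36 to 0.45.

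Within a genotype single arrays were often the highest or lowest for the replication genes. Control 4 was the highest control in 18 of 34 genes (52.9%), where it was so in 24.8% of all genes, and controls 1, 2 and 3 were the lowest control in 12, 9 and 10 genes. Knockout 4 was the highest knockout in 15 genes (44.1%, against 22.3% of all genes) and knockout 3 the lowest in 16 (47.1%, against 29.3%), though knockout 3 was also the highest in 7. This order was not particular to the replication genes. Among 94 other genes of the pathway, control 4 was the highest control in 50%. Knockout 4 was the highest knockout in 39.4% of them and knockout 3 the lowest in 56.4%. The mean over the 12107 genes at or above the median signal was also highest in control 4 (6.21) among controls and knockout 4 (6.19) among knockouts, and lowest in knockout 3 (6.11). No test was made of these counts. The mean over the 34 genes was 7.44, 7.47, 7.44 and 7.52 in the controls and 7.44, 7.45, 7.42 and 7.51 in the knockouts, so the spread from mouse to mouse within either genotype was wider than the difference between genotypes. Control 4 and knockout 4 both carry the Xist signal, but so do knockouts 1 and 2, which were each the highest knockout in 6 genes (17.6%). With the sexes split, the mean over the 34 genes differed by -0.08 among Xist-only arrays and by -0.03 among Y-only arrays, and 15 genes were lower and 4 higher in both. These splits compare 1 control with 2 knockouts and 3 controls with 1 knockout, and they have no test.

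Beyond the 34 genes, 94 other genes of the pathway were read in 5 lists, and all 94 were above the absent level in their mean. None was called in either direction. At an unadjusted limma p of 0.05 there were 2 of 94, or 2.13% (background 4.94%), and the groups did not overlap in 5, or 5.32% (background 2.9%). Their median difference was -0.0040, with 44 genes higher and 50 lower.

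Other licensing and firing genes (14) had a mean difference of 0.0017 (SE 0.09), with 8 genes higher and 6 lower, and knockout 3 was the lowest array of the list at 6.38. Recql4, a helicase of the initiation step, differed by -0.16 (SE 0.12) and Gins3, another subunit of the GINS complex, by 0.16 (SE 0.17), or by 0.0069 without control 1 and by -0.04 with Xist as a covariate. Other polymerase, primase and clamp genes (21) had a mean difference of -0.016 (SE 0.06), with 9 higher and 12 lower. Rpa3, the small partner of Rpa2, differed by -0.17 (SE 0.11) and was -0.07 without knockout 3, and Rfc2, another loader subunit, differed by -0.11 (SE 0.09).

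Genes of fork protection, checkpoint and chromatin assembly (12) had a mean difference of -0.05 (SE 0.03), with 4 higher and 8 lower. Clspn, the claspin that passes the fork-stalling signal to Chk1, gave 6.17, 6.21, 6.25 and 6.29 in the controls and 6.11, 6.07, 5.96 and 6.14 in the knockouts. Every knockout was below every control, with a difference of -0.16 (SE 0.09). Timeless, which steadies the fork together with Tipin, differed by -0.20 (SE 0.12).

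Other nucleotide synthesis genes (24) had a mean difference of 0.03 (SE 0.03), with 17 higher and 7 lower. Dck, the kinase that salvages deoxycytidine, gave 6.13, 6.23, 6.37 and 6.50 in the controls and 6.42, 6.78, 6.67 and 6.83 in the knockouts. Only control 4 reached above a knockout, and the difference was 0.37 (SE 0.12, limma adjusted p 0.991). Shmt1, which supplies one-carbon units for thymidylate, gave 6.58, 6.53, 6.55 and 6.54 against 6.79, 6.66, 6.74 and 6.67, without overlap and with a difference of 0.17 (SE 0.08). Ctps, which makes CTP, was also higher in every knockout (0.11), and Impdh1, of guanine nucleotide synthesis, was lower in every knockout (-0.14).

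Other G1 to S regulators (23) had a mean difference of -0.06 (SE 0.04), with 6 higher and 17 lower, and knockout 3 was again the lowest array at 6.65. Without it the mean difference was -0.02. Cdkn1c, which encodes the Cdk inhibitor p57 known for holding stem cells in rest, gave 3.53, 3.14, 3.33 and 3.28 in the controls and 3.79, 3.58, 3.82 and 3.68 in the knockouts. All knockouts were above all controls, with a difference of 0.40 (SE 0.11, limma adjusted p 0.88), and these signals sit at the top of the absent level, with control 2 inside it. Tfdp2, a partner of E2F factors in DNA binding, differed by -0.32 (SE 0.15) and by -0.18 without knockout 3.

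**Figure D4:**
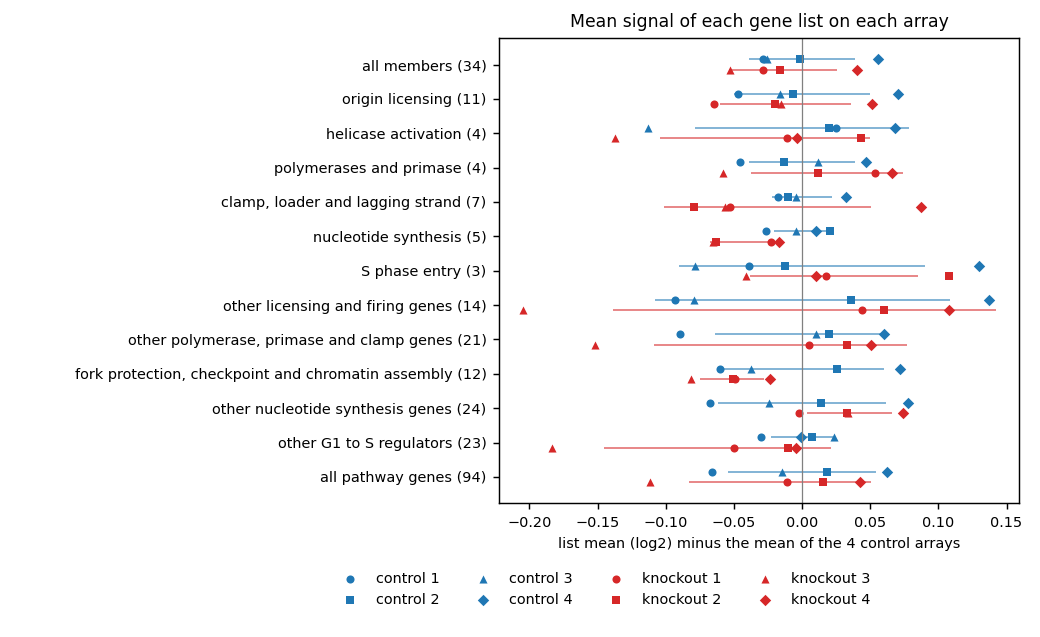
Mean log2 signal of each list of genes on each array minus the mean of the 4 controls (x axis), with the 6 steps and the 5 other lists on the y axis and the number of genes in brackets; lines span the group mean ± SD, blue for controls and red for knockouts. The genotypes overlap in all steps, and knockout 3 is the lowest array in the lists of other licensing, polymerase and G1 to S genes.

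The replication genes were set beside 15 mitosis genes such as Mki67, Ccnb1 and Cdk1, which mark the later part of the cycle. All 15 were above the absent level, with mean signals of 8.74 for Mki67, 8.40 for Ccnb1 and 8.47 for Cdk1. None was called, none had an unadjusted limma p under 0.05, and the mean difference was -0.04 (SE 0.04), with 6 higher and 9 lower. In both programs the mean difference was no more than about its standard error.

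The promoters of the 2 programs differed in their letters. E2F words were in 35.7% of the replication windows and in 1 of 13 mitosis windows (7.69%). The CHR element, searched as TTTGAA on both strands, was in 3 of 28 replication windows (10.7%) and in 9 of 13 mitosis windows (69.2%), against 18.2% of all windows. The box bound by NF-Y, searched as CCAAT, was in 57.1% and 92.3%, against 38.0% of all windows, and the GC box, GGGCGG, in 67.9% and 76.9%, against 35.9%. No test was made of these shares.

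**Figure D5:**
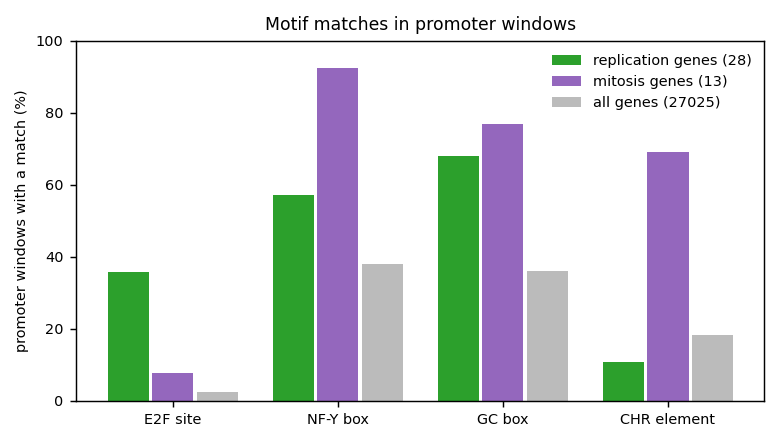
Share of promoter windows with at least 1 match (y axis, percent) for 4 motifs (x axis), among replication genes (green, 28 windows), mitosis genes (purple, 13) and all genes (grey, 27025). E2F words are most frequent among replication genes at 35.7%, and the CHR element among mitosis genes at 69.2%.

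Other cell types were read through marker lists. The mast cell and basophil list (6 of 6 genes above the absent level) had array means of 5.52 to 6.15 in controls and 5.02 to 5.78 in knockouts, a difference of -0.57. The megakaryocyte list (5 of 6 above) ran from 4.02 to 4.40 in controls and from 3.56 to 3.96 in knockouts, a difference of -0.37. All 6 of its genes were lower in the knockout mean, from -1.40 for Pf4 to -0.02 for Vwf, with a median of -0.20. Gp1ba, counted as above, was above the absent level on 4 of 8 arrays. Early myeloid progenitor genes (8 of 8 above) differed by 0.017. The erythroid list had 4 of 6 genes above the absent level, the B cell list 2 of 6 and the T and NK cell list 2 of 5. In that order the lists differed by 0.05 (SE 0.12), -0.08 (SE 0.07) and -0.16 (SE 0.07). In the erythroid list 3 genes were higher and 3 lower, the widest being Tfrc at 0.74 (limma adjusted p 0.686). No gene of any marker list was called, and the part of these cells in the replication values was not tested.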

How the data were processed

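The deposited values are log2 signals, 1 per transcript cluster and array. RMA and limma are named without versions, per the submitters' processing notes. RMA subtracts background, gives all arrays one distribution and summarises the probes, so a shift shared by most genes would not be seen. Amplification with the Ovation Pico WTA System, per the labels' protocols, can widen the spread of dim genes. The annotation and build behind the gene symbols are not given in the sources used here. Arrays hold no depth, and the precision is limited by having 4 arrays in each group.

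Of 28853 features, 1494 had no symbol. For the 1502 symbols with several features the brightest was kept, which left 24213 genes. Knockout was compared with control by lmFit and eBayes in R 4.3.3 with limma 3.58.1 on the log2 values, with no filter and no covariate and with Benjamini-Hochberg adjustment over all genes. For single genes all 70 ways of assigning the arrays were enumerated (exact permutation test, two-sided), with 0.0286 as the smallest p. The fit was tested on simulated data. Lists are given by counts, medians and per-array means, with no test. Values on every array are given for the 2 genes of smallest p in each step, for every other replication gene whose groups do not overlap, and the pathway genes named are the 2 of smallest p in each list. Impdh1, Ctps and the microRNA genes were named after their values were seen. The genes, lists and motifs were chosen with earlier results of these data known. Each array is 1 mouse per the labels, though knockout 4 read as neither sex alone. The 20 alternatives changed the normalization, the feature per symbol, the filter, the table, the threshold, the variance model, the array weights, sex as a covariate, the replicate block and the arrays included.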

Additional observations from a re-analysis of the deposited data

Results flagged for a closer look

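In 3 of the 112 groups of 4 arrays examined, 1 array lay so far from the other 3 that its gap to the nearest, as a share of the whole range, exceeded the 95% critical value of Dixon's test, and chance flags about 1 group in 20. Rfc5, a clamp loader subunit, stood at 8.71 in knockout 3 and at 8.44 to 8.47 in the other knockouts (log2 signal). E2f1, the G1 to S activator, stood at 6.16 in control 4 and at 5.89 to 5.93 in the other controls. The mean of the clamp, loader and lagging-strand genes stood at 8.01 in knockout 4 and at 7.84 to 7.87 in the other knockouts.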

How the results depend on the processing

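Under all 20 alternatives 0 of the 34 replication genes were called by limma, with a smallest adjusted p of 0.588 (Xist as a covariate) and at most 2 genes at an unadjusted p of 0.05. Over all genes 1 gene was called, beside 1195 at an unadjusted p of 0.05. That count was 0 with the replicate block, without knockouts 3 and 4 together, with Xist or the Y-linked genes as a covariate and with arrays centred on their medians. It ranged from 0 to 3 over the fits that left out 1 array, with the 3 calls made without control 4, and was 1 under the others. The replicate numbers do not pair the samples: deviations of same-numbered arrays correlated at -0.10, 0.12, 0.02 and 0.03. With the replicate block the unadjusted limma p was 0.0799 for Mcm7 and 0.0834 for Ccne1, and Atg12, at an adjusted p of 0.227, was no longer called. The direction held under every alternative that changes a value for 18 of the 34 genes, among them Mcm7 (-0.20 to -0.17), Tyms (-0.13 to -0.10), Rpa2 (-0.13 to -0.07) and Ccne1 (0.13 to 0.24), and 16 turned at least once. The mean over the 34 genes ran from -0.043 to 0.0044 and turned in 1 alternative. Of the step means, licensing turned in 2, helicase activation in 3, polymerases in 1 and S phase entry in 4 alternatives (-0.04 to 0.07), and those of the clamp step (-0.07 to -0.0074) and nucleotide synthesis (-0.05 to -0.03) did not turn. The intervals given are not adjusted for the number of genes, so they are not the limit of what the test could call. Differences of 0.40 (Cdkn1c, limma adjusted p 0.88) and 0.37 (Dck, limma adjusted p 0.991) were not called with 4 arrays per group.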
